A study of Mus musculus with 10 samples.

Results

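H3K27me3 domains of mouse embryonic stem cells were compared between cells with BAF250a, called WT, and cells after its knockout, called KO, over all enriched intervals on the 19 autosomes. The WT list held 7782 such intervals, called islands, and the KO list 6573, or 14355 of the 84243 islands in the 4 lists of the series. Islands on X and Y, 285 in WT and 260 in KO, were left out. Both cell populations were of 129/C57BL/6 strain and grew with LIF on fibroblast feeders, and removal of the feeders before fixation was not stated in the labels. KO cells were given 1 µM 4-hydroxytamoxifen and WT cells ethanol for 36 hours, from 4 hours after passage, so knockout and drug cannot be told apart. One H3K27me3 library per genotype was sequenced. The KO title reads H2K27me3, but its antibody label names H3K27me3, and the deletion of Arid1a cannot be checked in these lists. No difference below could be set against replicates, no p-value was computed, and each comparison is between these libraries.

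BAF250a, encoded by Arid1a, is the subunit that defines one form of the BAF (SWI/SNF) complex, which moves and evicts nucleosomes with the energy of ATP. H3K27me3 is written by Polycomb repressive complex 2 through its enzymes Ezh2 and Ezh1, and the Eed subunit binds the finished mark, which lets the complex spread it to nearby nucleosomes. In embryonic stem cells the mark covers silent genes of developmental regulators, and it is best known for long stretches over the Hox clusters. BAF complexes are known to oppose Polycomb at some sites. The mouse Hox genes lie in 4 clusters on chromosomes 6, 11, 15 and 2 in the RefSeq gene table of GRCm38. The islands are in mm9 coordinates and carry no gene names, so regions below are given by position and are not assigned to genes.

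An island is a run of 200 bp windows with many ChIP reads, in which gaps of up to 600 bp are bridged. Neighbouring islands of a list are therefore at least 800 bp apart. Each island carries its ChIP reads and the reads of a control library in the same interval. WT islands held 1086422 ChIP and 282205 control reads, and KO islands 777925 and 379833. Totals of the libraries are not stated, so a difference in reads common to all regions cannot be told apart from sequencing depth. Fold is ChIP over control reads, divided by 1 constant per list (1.68 in WT, 1.03 in KO) that stands for their depth ratio. Ranges in brackets after a share, a median ratio or a read ratio are 95% intervals. Those of read ratios cover counting error only, and those of shares and medians treat islands or regions as independent draws.

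Almost the same length of the autosomes was marked in both libraries, with islands of different sizes. Called length was 34.3 Mb for WT against 34.7 Mb for KO. The median island was 3000 bp wide in WT and 4000 bp in KO, with 25th to 75th percentiles of 2200 to 4600 bp and 3200 to 5600 bp. KO had few narrow islands, with 6360 of 6573 at 2 kb or wider against 6406 of 7782 in WT. At the other end, KO also had fewer wide islands, with 106 of 20 kb or more against 161. Islands of 5 to under 10 kb were more numerous in KO, 1782 against 1220. The widest island spanned 156000 bp in WT, and the widest KO island 127400 bp. Islands of 20 kb or wider held 24.1% of the ChIP reads of all autosomal WT islands, against 17.4% for KO.

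**Figure D1:**
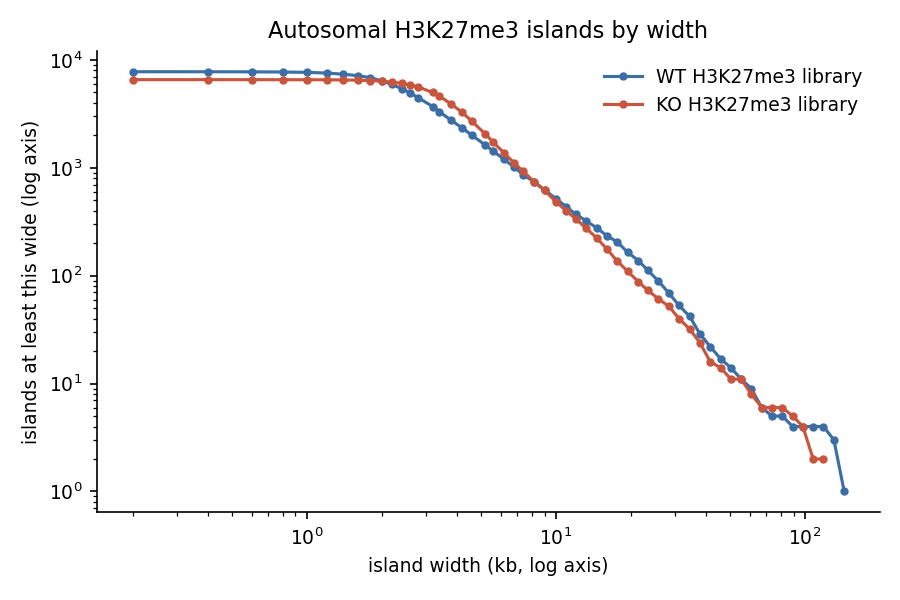
Number of autosomal H3K27me3 islands at least as wide as the value on the x axis (kb), on log axes, for the WT and the KO library. The KO line starts lower at 6573 islands, lies above the WT line between 2.2 and 8 kb and below it at 20 kb, where 106 KO and 161 WT islands remain.

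The count of wide islands rested on short gaps. When islands of a list less than 2 kb apart were joined before counting, 251 islands of 20 kb or more were found in WT and 238 in KO. Chromosome 14 held 24 of the 106 wide KO islands, against 6 of 161 in WT. Called length there was 2.39 Mb for WT and 4.44 Mb for KO, and on the other autosomes 31.9 and 30.3 Mb. Within its first 20 Mb alone, WT islands covered 1.101 Mb and KO islands 2.94 Mb. Control reads were also denser in the KO islands of that stretch, 13.97 per kb against 9.10 for WT, and their part in the result was not tested.

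About 35.7% of the length called in either library was called in both. By number, 51.2% of WT islands had no KO island at the same place (3985 of 7782), and 41.8% of KO islands no WT island (2749 of 6573). All 161 WT and all 106 KO islands of 20 kb or wider overlapped an island of the other library. Among islands of 2 to under 5 kb, the bulk of both lists, the share with a partner was 40.4% for WT (39.0 to 41.8%) and 49.1% for KO (47.6 to 50.7%). In the next class, 5 to under 10 kb, it was 79.6% for WT (77.2 to 81.8%) and 68.7% for KO (66.5 to 70.8%). The order of the libraries was thus opposite in these classes. Under 2 kb the share was 31.8% for WT (29.3 to 34.3%) and 62.0% for the 213 KO islands (55.1 to 68.5%), so it increased with width through every class for WT but not for KO.

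At a given width, unshared islands held fewer ChIP reads per kb, but narrow unshared WT islands also held fewer control reads and had the higher fold. WT islands of 2 to under 5 kb had a median of 26.1 ChIP reads per kb with a KO partner (n = 1886) and 22.1 without (n = 2783). Their control densities were 6.00 and 4.05 reads per kb, and their median folds 2.65 and 3.28. Among KO islands of that class the ChIP medians were 20.8 (n = 2011) and 17.9 (n = 2082), with 8.85 and 7.5 control reads per kb and the same median fold of 2.32. For 5 to under 10 kb, WT medians were 28.4 and 24.6 ChIP reads per kb, and KO medians 20.4 and 16.6. Here the fold was lower without a partner, at 1.85 against 2.14 for WT and 1.99 against 2.08 for KO. Few unshared islands lay beside an island of the other library. The nearest one was a median of 76400 bp away from WT-only islands and 52800 bp from KO-only islands. It lay within 2 kb for 489 WT-only islands (12.3%) and 320 KO-only islands (11.6%), and beyond 100 kb for 1832 (46.0%) and 1061 (38.6%).

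The 5 widest WT-only regions with control reads per kb of at most 3 times the median of the list, here called the control limit, were 11.4 to 15.2 kb wide. The widest, chromosome 11, 96259001 to 96274200, held 378 ChIP and 152 control reads, 1.48-fold over control. The second, chromosome 18, 80194001 to 80208400, was the strongest of the 5, with 423 ChIP and 94 control reads and a fold of 2.68. In the remaining 3, on chromosomes 1, 4 and 5, the fold was 1.14 to 1.34. The 5 widest KO-only regions within the control limit all lay on chromosome 14 between 3536001 and 7727800. They were 15 to 16.4 kb wide, with 250 to 523 ChIP reads, folds of 1.23 to 1.59 and 10.2 to 23.7 control reads per kb, against a control median of 8.67 over all KO islands. Within the control limit, the widest places called in 1 library were thus weakly enriched, apart from the chromosome 18 region. Where a library has no island its reads are not listed, so these regions have no ratio.

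WT and KO islands linked by overlap formed 3216 shared regions. Of these, 2426 (75.4%) had 1 island in each library. A further 346 (10.8%) had 1 WT island and 2 or more KO islands, here called split, and 302 (9.39%) had 2 or more WT islands and 1 KO island, called merged. The other 142 (4.42%) had several in both. Split regions outnumbered merged ones slightly and were longer. With the same number of islands per list, those with most ChIP reads, 354 were split and 236 merged, and without chromosome 14 the counts were 320 and 247. With X and Y included they were closer, at 350 and 335. The median called length of split regions was 11800 bp in WT and 10000 bp in KO, and they held 20.5% of the WT island reads. For merged regions it was 7000 bp in WT and 8200 bp in KO, and they held 10.2% of the WT island reads. Of regions with a geometric mean of WT and KO called length (mean width) of 10 kb or more, 186 were split and 93 merged.

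**Figure D2:**
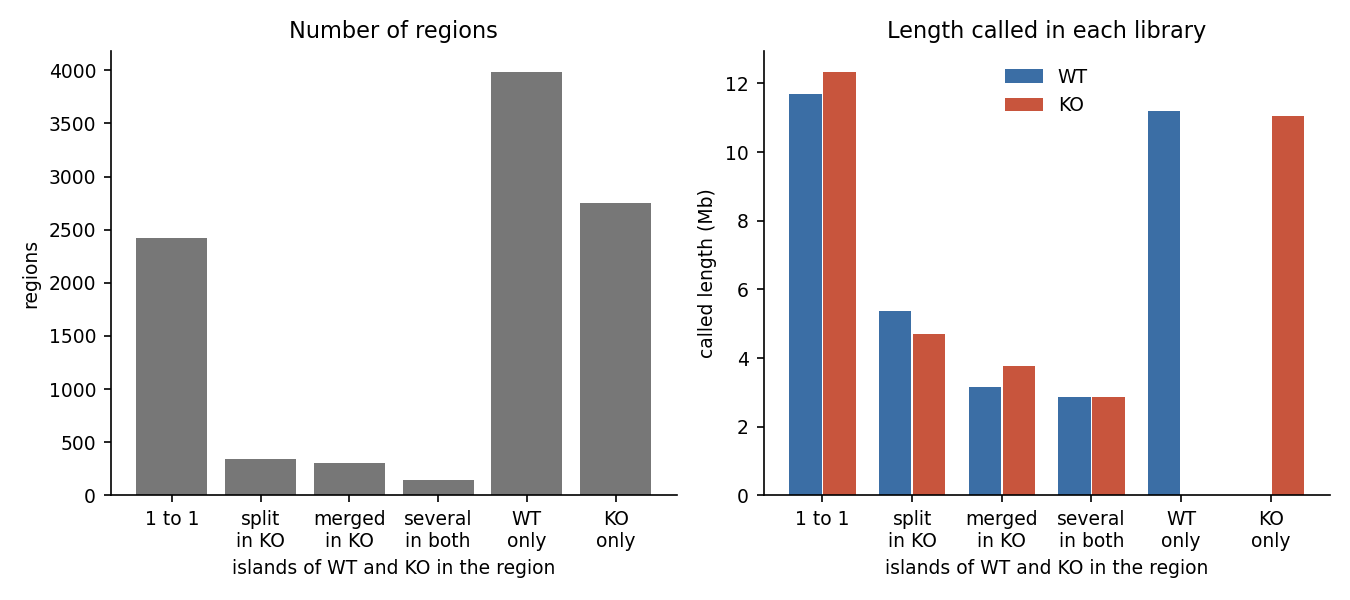
Regions by the number of islands they hold in each library, as a count of regions (left) and as called length in Mb in WT and KO (right). Regions called in 1 library only are the most numerous, 3985 in WT and 2749 in KO, and cover 11.2 Mb and 11.1 Mb.

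Wide WT domains were found in pieces in KO more often than wide KO domains were found in pieces in WT. Of the 161 WT islands of 20 kb or more, 112 overlapped 2 or more KO islands (69.6%, 61.8 to 76.6%), and 56 of these overlapped 3 or more. Of the 106 KO islands of that width, 57 overlapped 2 or more WT islands (53.8%, 43.8 to 63.5%). The intervals of the shares overlap. They treat islands as independent draws, and there were no replicate libraries of this mark. Overlap or separation of these intervals therefore cannot decide whether the genotypes differ. Within the control limit the shares were 77.1% of 144 WT islands (69.3 to 83.7%) and 52.8% of 89 KO islands (41.9 to 63.5%). Without chromosome 14 the shares were 69.7% (61.8 to 76.8%) and 45.1% (34.1 to 56.5%). At an adjusted p of 1e-05 or less they were 63.3% (55.3 to 70.8%) and 44.8% (35.0 to 54.8%). In the following settings the WT share was also higher, but the intervals overlapped. WT and KO shares were 64.6% and 48.1% when 50% of the smaller island had to overlap. They were 47.7% and 32.6% at a fold of 2 or more, and 69.1% and 54.1% with X and Y included. With islands less than 2 kb apart joined the shares were 35.1% for WT and 34.5% for KO. The libraries thus hardly differed once interruptions shorter than 2 kb were bridged. Islands are called from ChIP reads, so differences in splitting and merging cannot be told apart from differences in sequencing depth.

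Interruptions were short in both directions. The 421 gaps between KO pieces of split regions had a median of 1000 bp, and 250 of them (59.4%) were 1000 bp or shorter. In all 357 were under 2 kb (84.8%), and the longest was 14600 bp. The 375 gaps between WT pieces of merged regions also had a median of 1000 bp, with 243 (64.8%) of that length or shorter. KO pieces covered 78.9% of the length of the split WT islands, and WT pieces 72.1% of the merged KO islands. Most split regions had 2 pieces (290 of 346), and 15 had 4 or more.

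Coverage by the other library was lowest at the ends of islands. Overlapping intervals whose ends differ give this shape in any case, so it only describes the lists. Each island was divided into 10 bins of equal length. Along the WT islands of 20 kb or more, KO islands covered on average 90.2% of the middle bins and 67.9% of the outermost bins. Along KO islands of that width, WT islands covered 86.6% and 73.6%. Islands of 5 to under 10 kb had the same shape at a lower level, with 63.3% in the middle and 46.2% in the outermost bins of WT islands, and 53.4% and 41.0% of KO islands. The median WT island of 20 kb or more was covered to 88.1% by KO islands. Coverage was 90% or more in 71 of the 161 and under 50% in 7.

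**Figure D3:**
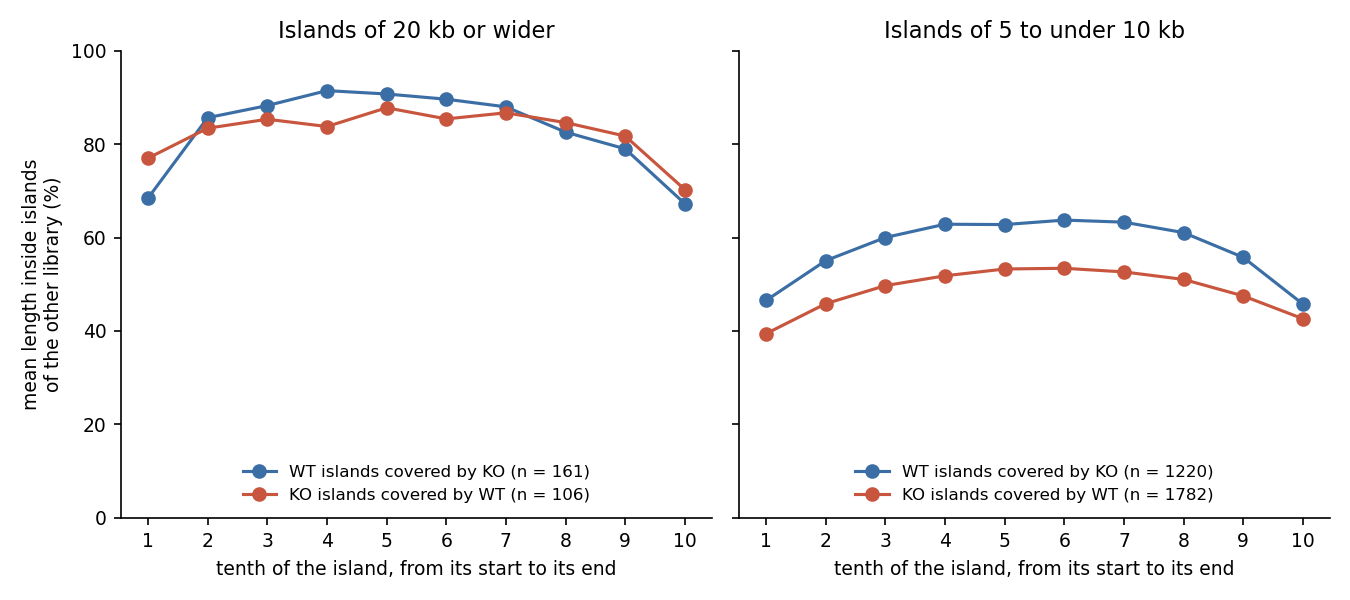
Mean share of length (%) inside islands of the other library, for 10 equal bins from the start to the end of an island, for islands of 20 kb or more (left) and 5 to under 10 kb (right). In all 4 lines the first and last bins are lowest, and in WT islands of 20 kb or more coverage goes from 67.9% in the outermost to 90.2% in the middle bins.

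Where each library had 1 island, the KO island was slightly wider over all such regions, and the direction turned with width. The median KO over WT width was 1.07 (log2 0.10, 0.07 to 0.14) over 2426 regions, with 1314 wider, 1002 narrower and 110 equal in KO. The interval reached 0 without chromosome 14 (log2 0.072, 0 to 0.103), with equal numbers of islands per list (0.067, 0 to 0.093) and with islands less than 2 kb apart joined (0.045, 0 to 0.081). For regions of 2 to under 5 kb the ratio was 1.15 (n = 1617), with median widths of 3200 bp in WT and 3600 bp in KO. For 5 to under 10 kb it was 0.955 (n = 583), and for 20 kb or wider 1.00 (n = 23). The KO island enclosed the WT island in 777 regions (32.0%), lay inside it in 627 (25.8%), and was shifted to one side in 990 (40.8%). Identical ends were found in 32 regions. Ends differed by a median of 800 bp, and 27.1% of ends lay within 200 bp, the length of 1 window, of each other.

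ChIP reads per kb of called length were lower in KO in 93.0% of shared regions, and the median difference was larger in wide regions. This was measured in the 3206 regions with 20 or more ChIP reads in each library and at least 1 control read. The densities are not scaled for depth, so a lower value common to all regions cannot be told apart from sequencing depth. The median KO over WT ratio was 0.727 (log2 −0.46, −0.47 to −0.45). By mean width it was 0.741 under 2 kb (n = 96), 0.745 at 2 to under 5 kb and 0.729 at 5 to under 10 kb. It was 0.663 at 10 to under 20 kb and 0.614 at 20 kb or more (log2 −0.70, −0.76 to −0.64, n = 169). The share of regions with a lower density in KO did not follow this order, and was 89.9% at 20 kb or more. Within WT, islands of 20 kb or more had a median of 44.5 ChIP reads per kb and those of 2 to under 5 kb 23.5. The KO medians were 28.6 and 19.2. ChIP density thus differed less between wide and narrow islands in the KO list. Which islands are called can depend on sequencing depth, whose part in this difference was not tested.

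Control reads per kb were higher in KO. Their median KO over WT ratio was 1.32 (log2 0.40, 0.38 to 0.43). By mean width it was 1.59 under 2 kb, 1.405 at 2 to under 5 kb, 1.25 at 5 to under 10 kb, 1.18 at 10 to under 20 kb and 1.102 at 20 kb or more. WT control density had a median of 5 reads per kb in islands of 2 to under 5 kb and 12.0 in those of 20 kb or more. The KO medians were 8.13 and 13.8. WT and KO controls thus lay closest in wide regions and farthest apart in narrow ones. Islands are listed only where ChIP exceeds control, and 81 WT islands had 0 control reads against 0 KO islands.

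**Figure D4:**
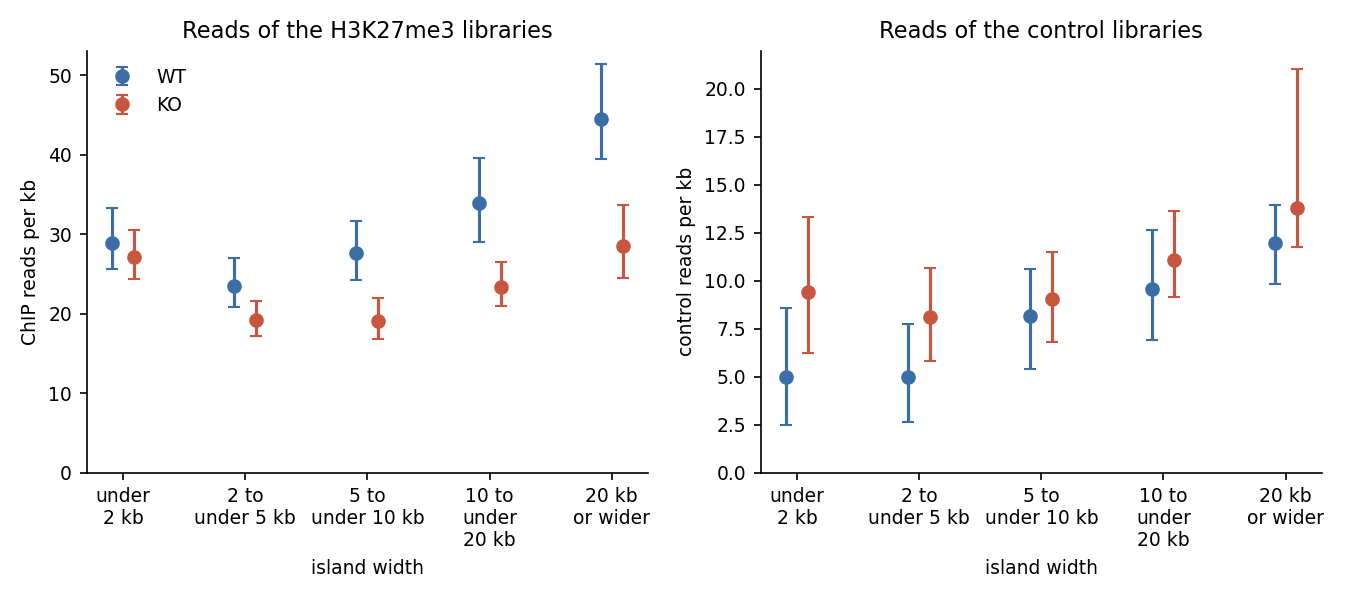
ChIP reads per kb (left) and control reads per kb (right) of autosomal islands by width class in WT and KO; points are medians over islands and bars span the 25th to the 75th percentile. ChIP density is higher in WT in every class, most at 20 kb or wider (44.5 against 28.6), and control density is higher in KO in every class.

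Fold over control, which sets each library against its control reads, was lower in KO by a smaller margin. The median ratio was 0.896 (log2 −0.16, −0.18 to −0.14), and the median fold was 2.43 for WT and 2.20 for KO. By mean width the ratio was 0.772 under 2 kb, 0.876 at 2 to under 5 kb and 0.937 at 5 to under 10 kb. At 10 to under 20 kb it was 0.900 and at 20 kb or more 0.898. Unlike the ChIP ratio, the median fold ratio was thus not lowest in the widest regions. Under 2 kb, however, it rested on 96 regions, with a wide interval (log2 −0.37, −0.59 to −0.06). That interval holds the log2 median at 20 kb or more (−0.15). Fold was 1.5 times or more lower in KO in 752 of 3206 shared regions (23.5%) and 1.5 times or more higher in 260 (8.11%). Wide regions were rarely past either limit. At a mean width of 20 kb or more, 14 of 169 (8.28%) were lower by that factor and 0 higher, although their median ratio was 0.898. Among split regions 21 of 346 (6.07%) were lower and 26 (7.51%) higher. Among merged regions 80 of 302 (26.5%) were lower and 9 (2.98%) higher. At 2 to under 5 kb, 30.1% of regions were lower and 10.7% higher. Such shares also depend on the reads per region, because ratios of few reads vary more. The median ratio was 0.974 in split and 0.818 in merged regions.

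Split and merged domains of 10 kb or more differed in both densities. Within the control limit, the KO over WT ratio of ChIP density was 0.601 in the 184 split regions (log2 −0.74, −0.77 to −0.71) and 0.817 in the 84 merged ones (log2 −0.29, −0.46 to −0.23). It was 0.651 in the 110 regions with 1 island each. The ratio of control density was 1.04 in split regions, 1.13 with 1 island each and 1.58 in merged regions. Merged regions therefore had more control reads in KO, whose part in the merging was not tested, and split regions had near equal control. The number of pieces and the density come from the same reads, so their relation is given as a description. Relative to the median ratio of all shared regions, ChIP density was 1.5 times or more lower in KO in 67 of 3206 (2.09%) and that much higher in 79 (2.46%).

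The 5 named split regions had WT islands of 32.2 to 156 kb, with 33.3 to 68.7 ChIP reads per kb and folds of 2.11 to 3.10 in WT. At chromosome 6, 52091401 to 52230400, WT had 1 island of 137.4 kb and KO 6 islands of 2.8 to 42.4 kb. The 5 gaps between the KO islands were 0.8 to 1.8 kb long and summed to 5.8 kb. WT held 9441 ChIP reads there and KO 3980, or 68.7 and 30.2 per kb, a ratio of 0.439 (0.423 to 0.456). Control density was almost equal, at 13.4 and 13.6 per kb. Fold was 3.05 for WT and 2.16 for KO. ChIP density was 22.9 to 33.2 per kb in the single KO pieces, so all 6 lay below the WT island.

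At chromosome 15, 102752601 to 102908600, 1 WT island of 156 kb stood against 5 KO islands of 16 to 47.8 kb with 4.8 kb of gaps. ChIP density was 62.5 per kb for WT and 30.6 for KO (ratio 0.490, 0.473 to 0.507), with 12.0 and 12.4 control reads per kb. The neighbouring region, 102909401 to 102941600, also had 1 WT and 5 KO islands. Its WT density was lower, at 33.3 per kb, and the ratio was 0.672 (0.605 to 0.745), with folds of 2.11 and 2.10. Chromosome 7, 86638201 to 86692400, had 4 KO islands with a gap of up to 8.6 kb, and ChIP densities of 51.5 and 28.6 per kb. At chromosome 4, 146880801 to 146918200, control density was 10.3 per kb for WT and 21.2 for KO, and the fold 2.86 and 1.58. The KO over WT ratio of control density was 0.998 to 1.11 in the first 4 of these split regions and 2.06 in the chromosome 4 region.

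Long regions with several islands in both libraries had more pieces in KO on chromosomes 11, 9 and 4 and fewer on chromosome 14. At chromosome 11, 96103001 to 96248600, WT islands of 6.6 and 138 kb stood against 4 KO islands, with ChIP densities of 61.8 and 28.8 per kb (ratio 0.466, 0.448 to 0.483) and control densities of 12.9 and 12.7. At chromosome 9, 91241601 to 91319800, 2 WT and 4 KO islands had 52.3 and 28.2 ChIP reads per kb (ratio 0.539, 0.510 to 0.569), and folds of 3.91 and 3.20. At chromosome 4, 114561801 to 114612400, 2 WT and 5 KO islands had nearly equal folds of 2.11 and 2.15. The chromosome 14 regions, 7794201 to 7858800 and 5453401 to 5511000, had 8 and 7 WT islands against 2 KO islands each. Called length was 42 kb in WT and 63.8 kb in KO for the first, and 28.8 and 56.4 kb for the second, at folds of 1.45 to 1.63.

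**Figure D5:**
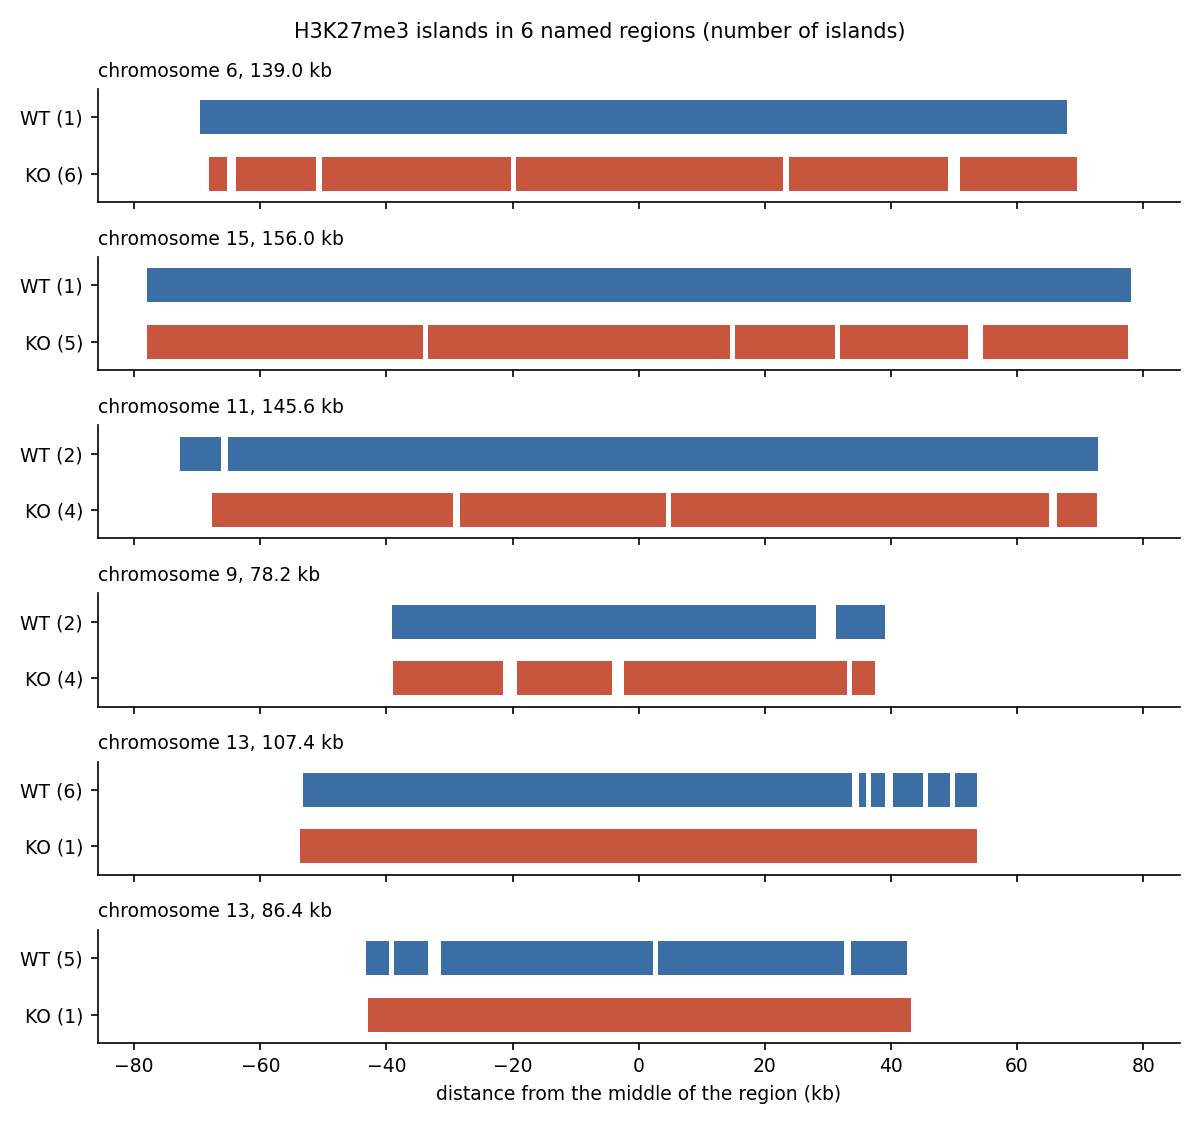
WT and KO H3K27me3 islands in 6 of the named regions, drawn to scale against the distance (kb) from the middle of the region, with the number of islands in brackets. The upper 4 regions have 1 or 2 islands in WT and 4 to 6 in KO, and the lower 2, both on chromosome 13, have 6 and 5 in WT and 1 in KO.

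The domains joined in KO had more control reads there. At chromosome 13, 12955401 to 13062800, 6 WT islands with gaps of 0.8 to 1.2 kb stood against 1 KO island of 107.4 kb. ChIP density was 37.4 per kb for WT and 34.7 for KO, a ratio of 0.928 (0.886 to 0.971), and control density 7.63 and 18.9. At chromosome 13, 12865601 to 12952000, the 5 WT islands and 1 KO island had 36.7 and 34.5 ChIP reads per kb and 6.26 and 15.5 control reads per kb. Across the 5 named merged regions the ChIP ratio was 0.776 to 0.940 and the control ratio 1.34 to 2.92. Each of the 5 had a lower fold in KO, with a range of 1.90 to 3.98 for WT and 1.45 to 2.17 for KO. Control density was also higher in KO in 75.4% of all 3206 shared regions, at a median ratio of 1.32. The median fold ratio over all of them was 0.896. The lowest control ratio of the 5, 1.34, was thus close to that of shared regions in general.

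Among the 5 widest domains with 1 island each, the widths were close in 4. At chromosome 1, 78175001 to 78213000, they were 36.8 kb in WT and 38 kb in KO, with 55.9 and 28.7 ChIP reads per kb (ratio 0.512, 0.476 to 0.552) and folds of 3.31 and 2.49. At chromosome 8, 59801001 to 59838000, they were 37 and 35.2 kb, with 56.3 and 29.9 ChIP reads per kb and folds of 3.10 and 2.69. At chromosome 2, 147846201 to 147886600, the fold was 2.07 for WT and 2.21 for KO, although the ChIP ratio was 0.623 (0.573 to 0.677). The island at chromosome 3, 25416201 to 25456400, had identical ends and a ChIP ratio of 1.04 (0.969 to 1.12), but 10.4 control reads per kb in WT against 22.6 in KO. The exception in width was chromosome 4, 145251601 to 145298400, at 46.8 kb in WT and 12.8 kb in KO. A low ChIP density ratio was thus also found in domains that were whole in both libraries.

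The 5 widest regions over the control limit, on chromosomes 8 and 1, spanned 91.8 to 133.2 kb and were barely enriched, at folds of 1.101 to 1.33 for WT and 1.13 to 1.21 for KO. The widest, chromosome 8, 19905001 to 20038200, had 11914 ChIP and 5446 control reads in WT, and the KO counts were 11469 and 9256. These are more ChIP reads than in any other region named here. Chromosome 8, 126061401 to 126153200, had 80.8 kb called in WT and 20.2 kb in KO.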

How the data were processed

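H3K27me3 islands of 1 WT and 1 KO ChIP-seq library, out of 10 samples in the series, were analysed; H3K4me3 lists were not used here. Per the labels' protocols, fixation was with 1% formaldehyde (10 minutes), chromatin was digested with micrococcal nuclease and sonicated briefly, and reads were 50 bp long. The submitters' processing notes name Bowtie, SICER 1.1 and mm9. Window (200 bp), bridged gap (600 bp) and FDR (0.05) are given in the names of the deposited lists. Handling of duplicates: not given in the sources used here. ChIP and control read counts per island were deposited unscaled by the authors. The deposited fold (ratio) followed from them within 0.1% in 100% of islands, with 0.25 standing for a control of 0. The authors' p-value and adjusted p-value per island served only as a filter. The lists do not state which library was the control.

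Islands overlapping by 1 bp or more were linked into regions, reads were summed per region and list, and densities were taken over called length. Median intervals are rank-based, shares have Clopper-Pearson intervals and read ratios exact conditional binomial ones. Positions are 1-based. Named regions are the 5 with most pieces (split, merged) or the 5 widest of each other class, within the control limit (17.4 reads per kb in WT, 26 in KO), and the 5 widest over it. Regions and lists were chosen with earlier results of these data known. No mm9 genome or annotation was used, so no sequence is shown and gene lists were not analysed here. Python 3.11.15, numpy 2.4.6, pandas 2.3.3, scipy 1.17.1 and matplotlib 3.10.9 were used. Region classes and ratios were tested on simulated data, and counts of shared islands differed from bedtools 2.31.1 by 0. Alternatives concerned overlap, FDR, fold, control density, sex chromosomes, list length, joining and read minimum. Removal of chromosome 14 was added after seeing the data. The share of wide islands with 2 or more partners was not listed among the planned results. None of the alternatives for that share was planned.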

Additional observations from a re-analysis of the deposited data

How the results depend on the processing

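With 1 library per genotype none of these values has a replicate check, and library depth is unknown. Across the alternatives 49 values stayed within their margin, 36 moved and 0 reversed, and the cause was not tested. No paired analysis was possible because each ChIP mark had 1 library per genotype.

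When 50% of the smaller island had to overlap, 45.6% of WT and 55.0% of KO islands had a partner. At an adjusted p of 1e-05 or less the shares were 45.1% and 55.8%, with a median log2 KO over WT ratio of 0.44 for control density and −0.20 for fold. At a fold of 2 or more they were 34.5% and 47.4%, with log2 ratios of 0.51 for control and −0.26 for fold. That filter left 107 wide WT and 43 wide KO islands, of which 47.7% and 32.6% had 2 or more partners, and 147 split and 127 merged regions. Within the control limit 77.1% of wide WT islands had 2 or more partners. With X and Y the control log2 ratio was 0.43. With equal list lengths 53.2% of WT and 55.4% of KO islands had a partner, and the log2 width ratio was 0.067.

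With islands under 2 kb apart joined, 46.6% of WT and 55.4% of KO islands had a partner, 194 regions were split and 150 merged, and the log2 width ratio was 0.045. Wide islands then numbered 251 in WT and 238 in KO, of which 35.1% and 34.5% had 2 or more partners. With 100 or more ChIP reads per library the log2 ratios were −0.51 for ChIP, 0.27 for control and −0.13 for fold. Without chromosome 14, 47.0% of WT islands had a partner, and the log2 ratios were −0.48 for ChIP and 0.36 for control.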

Other observations

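Islands were crowded in a few stretches of 1 Mb, against a median of 3 islands per Mb in WT and 2 in KO. Chromosome 18, 37000001 to 38000000, held 55 WT and 47 KO islands at folds of 3.25 and 2.88, with 5.58 and 7.43 control reads per kb, the highest fold among the 10 most crowded stretches of each list. Chromosome 4, 146000001 to 147000000, held 76 WT and 44 KO islands, at folds of 2.37 and 1.49 and 9.31 and 18.2 control reads per kb. On chromosome 14 the stretch from 4000001 to 5000000 held 60 WT islands summing to 246 kb and 78 KO islands summing to 606.8 kb.

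By chromosome, 70.9% of WT islands on chromosome 14 had a KO partner, and 40.6 to 59.8% on the other autosomes. For KO islands the order was opposite. On chromosome 14, 49.6% of them had a WT partner, and 50.7 to 69.4% on the other autosomes. The KO over WT ratio of called length was 1.86 on chromosome 14 and 0.793 to 1.06 elsewhere, lowest on chromosome 4. The median ChIP density ratio of shared regions was 0.860 on chromosome 14 and 0.693 to 0.749 elsewhere.

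Across the 3206 shared regions, Spearman's rho between WT and KO was 0.50 for ChIP reads per kb, 0.67 for control reads per kb, 0.60 for fold and 0.64 for called length. These are descriptions across regions, which are not replicates. WT and KO values of a region come from overlapping stretches, which share base composition. At the 32 intervals with identical ends, ChIP reads were 10283 for WT and 8371 for KO, and control reads 3910 and 5351.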
